A study of Marchantia polymorpha and Lactuca sativa with 27 samples.

Results

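A set of 135 genes of the liverwort Marchantia polymorpha was higher in wild-type plants labelled as lacking phosphate and near the full-medium level in plants labelled as lacking nitrate. The genes were chosen from measured values. Counts were scaled to the library total as CPM, and a pseudocount of 1 CPM was added to each group mean. A gene was taken when the wild type labelled no phosphate exceeded the wild type in full medium by at least 1 on the log2 scale and the wild type labelled no nitrate lay within 0.5 of full medium. The mutant also had to lie within 0.5 of the wild type in full medium and within 1 of it in the libraries labelled no nitrate. Genes of the V chromosome and 3 other identifiers were left out by the rule. Of 19355 genes in the count table, 872 met the first condition, 162 met the first 2, and 135 remained at the end. Of these, 34 carry a symbol in the names table and 101 do not.

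The study sequenced poly(A)-selected, directional RNA libraries of whole plants from 2 lines. The mutant line is labelled Mpwrky10 (wrky10 here), after MpWRKY10, which encodes a transcription factor of the WRKY class, and the wild type is Tak-1, a male accession. Gemmalings, which grow from asexual gemmae, were raised on agar with full-strength Yamagami medium under continuous light. At 7 days of age they were moved for 5 days to liquid medium that was labelled as holding 0 mM phosphate, as holding 0 mM nitrate, or as full strength with 2 mM phosphate and 10 mM nitrate. Each of the 6 groups held 3 libraries: wrky10 labelled no phosphate, wrky10 labelled no nitrate and wrky10 in full medium, then Tak-1 in the same 3 media. The labels do not give the kind of mutation, the number of mutant lines or whether replicates came from cultures of their own; p-values then cover no more than the scatter among these libraries, which may be technical. Lettuce shoots of the same series were not used here.

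Land plants adjust the uptake and recycling of a mineral nutrient when it runs short. Ammonium transporters of the AMT family carry ammonium into cells, NPF transporters carry nitrate, peptides and some hormones, and plasma membrane proton pumps of the HA family supply the gradient that drives such uptake. AMT genes are known to rise in many plants when nitrogen is short, and phosphate transporter genes of the PTB family when phosphate is short, as in the green alga Chlamydomonas and in Marchantia. Liverworts also answer stress with secreted peroxidases, with phenolic compounds that begin at phenylalanine ammonia-lyase (PAL), and with terpenes kept in oil body cells.

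Depth was 18165419 to 25544702 counts per library. MpWRKY10 itself was measured at 25.4, 28.7 and 29.4 CPM in the mutant labelled no phosphate, against 30.8, 29.9 and 32.3 CPM in Tak-1 labelled no phosphate, so its level does not check the genotype label. The nutrient labels could be checked against transporter genes. The summed level of the PTB genes was 27.5 to 34.0 CPM in the mutant labelled no phosphate, 166 to 297 CPM in the mutant labelled no nitrate and 36.0 to 47.7 CPM in the mutant in full medium. In Tak-1 the same sum was 32.8 to 36.4, 336 to 498 and 27.8 to 45.7 CPM. The PTB genes were therefore high in the libraries labelled no nitrate, in both lines. The summed AMT level, without the 1 AMT gene that is a member, was 737 to 940 CPM in the mutant labelled no phosphate, 592 to 763 CPM labelled no nitrate and 459 to 659 CPM in full medium. These levels go against the nutrient labels, whose exchange was not tested, and the groups are called by their labels throughout. Among the mutant libraries labelled no phosphate, the position on the first principal component was 8.5, 23.0 and -3.6, wider than the 34.1 to 38.7 of their Tak-1 counterparts. The Rubisco small subunit gene MpRBCS, the 1 photosynthetic marker found, was at 137 to 168 CPM in the mutant labelled no phosphate, 306 to 347 CPM labelled no nitrate and 378 to 457 CPM in full medium. The air chamber marker MpNOP1 had group means of 88.2 to 101 CPM. In whole-plant RNA, fewer cells of a type and less RNA per cell cannot be told apart.

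In the wild type, whose values chose the genes, the rise over full medium was mostly modest. It had a median of 1.23 on the log2 scale (1.00 to 4.94), with 107 genes from 1 to under 1.5, 22 from 1.5 to under 2, and 6 at 2 or more. The labelled no nitrate value had a median of 0.27, above full medium in 109 genes and below it in 26, so most members leaned upwards there as well within the limits of the rule. Before the change 16 genes were under 1 CPM in Tak-1 full medium, 41 were at 1 to under 10 CPM, 70 at 10 to under 100 CPM and 8 at 100 CPM or more. The 3 members nearest the threshold were Mp3g06070, Mp5g12590 and the proton pump gene MpHA14, each at 1.00, and the 3 genes just outside were Mp6g07180 at 1.00, Mp4g15510 at 0.99 and Mp3g01440 at 0.99. Summed over the 135 genes, the level was 8948, 9377 and 8479 CPM in the mutant libraries labelled no phosphate. The mutant libraries labelled no nitrate held 5736, 5604 and 4189.9 CPM, and those in full medium 3853, 5647 and 4148 CPM. For Tak-1 the sums were 11859, 11893 and 11378 CPM labelled no phosphate, 5173, 5011 and 4915 CPM labelled no nitrate and 5147, 4518 and 4233 CPM in full medium. In each line all 3 libraries labelled no phosphate lay above all 6 others. The 10 highest members made up 48.3% of the sum in Tak-1 labelled no phosphate, and the single gene Mp1g01450 15.7%.

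**Figure D1:**
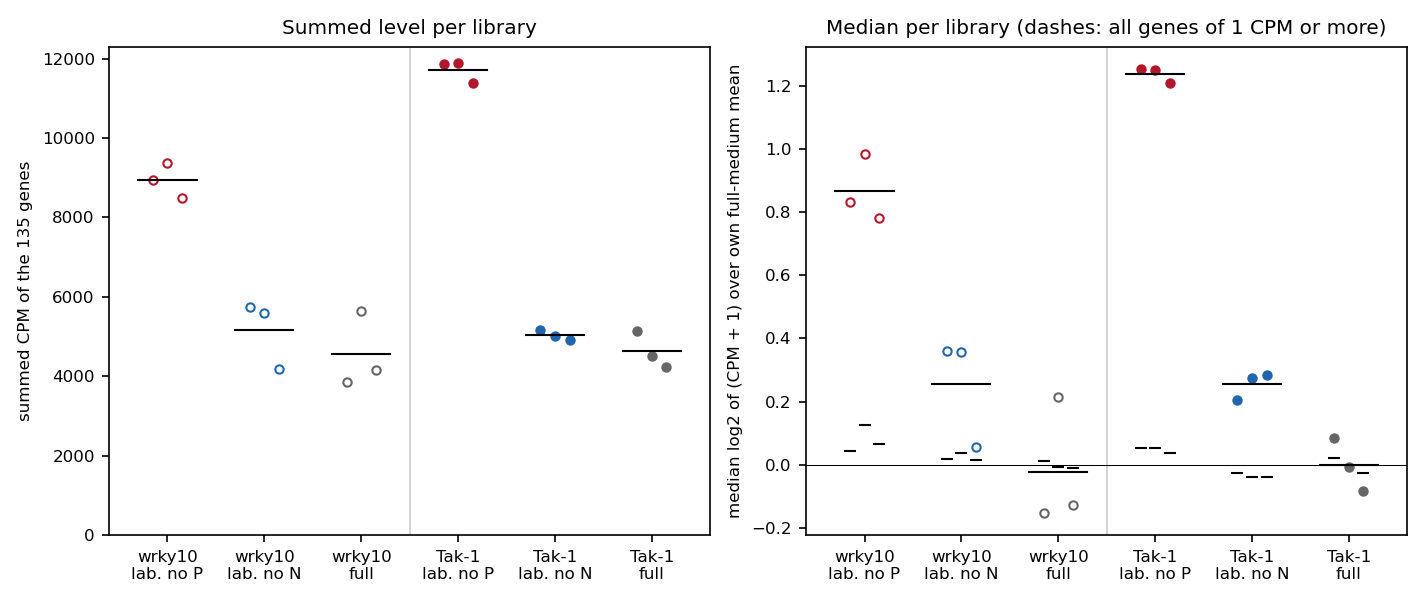
Left, the summed level (CPM) of the 135 genes in each library; right, the median over the 135 genes of log2 (CPM + 1) over the full-medium mean of the same line. Points are libraries, long lines are group means and short dashes on the right are the median of 11899 genes of 1 CPM or more. The libraries labelled no phosphate reached medians of 0.78 to 0.99 in wrky10 and 1.21 to 1.25 in Tak-1.

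The mutant plants labelled no phosphate are the 3 liverwort libraries that the rule did not use, and they gave the test of whether the genes rose there too. They did for most of the set: 115 of the 135 genes (85.2%) were called higher than in the mutant in full medium and 0 were called lower. Over all 13016 genes tested, 37% were called in either direction in that comparison, 20.3% higher and 16.8% lower. The tests were edgeR quasi-likelihood tests with Benjamini-Hochberg adjustment over all genes tested, called at an adjusted p under 0.05. In the levels themselves, 115 members (85.2%) had all 3 mutant libraries labelled no phosphate above all 3 in full medium, against 31.1% of all genes. The median fold change of the members was 0.91 on the log2 scale, against 0.03 over all genes tested, and 133 of 135 were above 0. The mutant full-medium libraries entered the rule through their closeness to Tak-1 in full medium. That Tak-1 group was itself chosen as at least 1 below Tak-1 labelled no phosphate. The mutant full-medium group was thus held near a value chosen as low, and the comparison is not free of the rule. All 135 genes passed the filter on low counts, but 11 of them reached the equivalent of 10 counts in fewer than 3 libraries outside the groups labelled no phosphate. These were MpLDPS2, MpPOD103, MpPOD126, MpPOD166, MpMTPSL22, Mp4g08350, Mp4g22710, Mp5g22010, Mp5g23120, Mp8g04340 and Mp8g13340. They entered the test through the groups in which they are high, so their p-values are given as a description. Of the other 124 genes, 106 were called higher than in full medium and 80 higher than in the libraries labelled no nitrate.

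The response of the mutant varied between libraries. The median change over full medium was 0.83, 0.99 and 0.78 in replicates 1, 2 and 3 labelled no phosphate, the order in which these libraries lie on the first principal component. Replicate 2 held the highest of the 3 values in 85 genes and replicate 3 the lowest in 79. Over 11899 genes of 1 CPM or more the medians of these libraries were 0.04, 0.13 and 0.07, so replicate 2 lay highest there too. These counts and the variation given next were not computed over all genes, so neither is shown to be particular to the set. The median coefficient of variation over the members was 12.3% in the mutant labelled no phosphate, 18.8% labelled no nitrate and 22.1% in full medium, against 6.35%, 9.51% and 13.2% in the same media in Tak-1. Of the mutant full-medium libraries, replicate 2 lay highest, with a median of 0.21 over the group mean against -0.15 and -0.13 in replicates 1 and 3. Without it the median change of the members was 1.07.

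**Figure D2:**
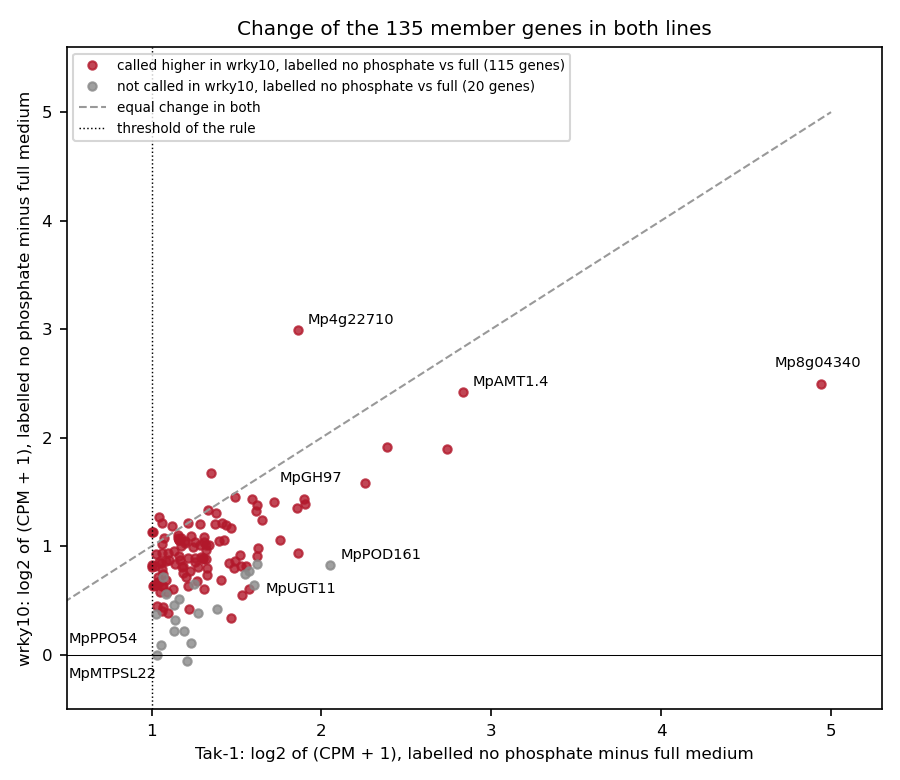
Each point is 1 of the 135 genes: on the x axis its log2 difference of (CPM + 1) between Tak-1 labelled no phosphate and Tak-1 in full medium, on the y axis the same difference in wrky10. Nearly all points lie above 0 on the y axis and 126 lie below the dashed line of equal change; the x values chose the genes, so that a smaller change in the mutant is partly fixed by the choice.

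Against the mutant libraries labelled no nitrate, 87 members (64.4%) were called higher and 3 lower in the mutant labelled no phosphate. The shares over all genes tested were 26.7% in either direction, 11.4% higher and 15.3% lower. Without the 11 genes that passed the filter through the groups labelled no phosphate, 80 of 124 members were called higher. The mutant libraries labelled no nitrate also entered the rule, which held them within 1 of Tak-1 in that medium. That Tak-1 group had to lie within 0.5 of full medium, so genes far above it were left out beforehand. In 94 members the 3 libraries labelled no phosphate lay above all 3 labelled no nitrate, against 22.5% of all genes, and in 3 members below them, against 15.9%. The median fold change was 0.66 on the log2 scale, against -0.01 over all genes. In all, 80 genes were called higher in both comparisons, and 7 only against the libraries labelled no nitrate. Another 35 were called higher only against full medium, of which the 1 gene Mp8g00740 was called lower against the libraries labelled no nitrate. In 11 genes no call was made in either comparison. This split includes the genes that passed the filter through the groups labelled no phosphate. Of them, MpLDPS2, MpPOD166, Mp4g08350, Mp4g22710, Mp5g23120, Mp8g04340 and Mp8g13340 are among those called higher in both, which are thus not the 80 of 124 above. Mp5g22010 and MpPOD103 are among those called only against full medium, and MpPOD126 and MpMTPSL22 among those called in neither. The name of the set holds for the wild type by its rule, but 35 members in the mutant had a level labelled no nitrate that exceeded full medium by more than 0.5 on the log2 scale. In 95 members it lay within 0.5 of full medium and in 5 it was lower by more than 0.5. The rule left room for this, since it set no limit between these 2 mutant groups, only between each of them and Tak-1. The share of all genes beyond 0.5 was not computed, so the split is not shown to be particular to the set. The 2 comparisons share the libraries labelled no phosphate.

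**Figure D3:**
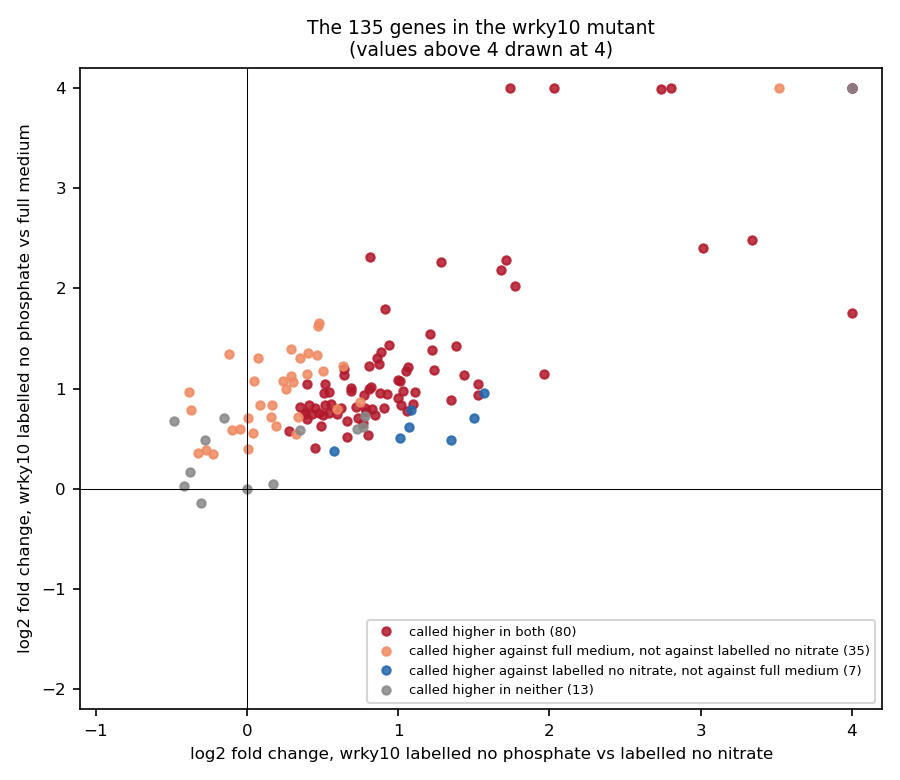
Log2 fold changes of the 135 genes in wrky10: labelled no phosphate over labelled no nitrate on the x axis, labelled no phosphate over full medium on the y axis. Points are coloured by the calls at an adjusted p under 0.05, and 8 genes with a value above 4 are drawn at 4. In all, 80 genes were called higher in both and 35 only against full medium. Both counts include genes that passed the filter on low counts through the groups labelled no phosphate.

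The set held 1 AMT, 1 NPF and 1 proton pump gene, each called higher in both comparisons. MpAMT1.4 (Mp8g05280), an ammonium transporter, had 176, 201 and 150.4 CPM in the mutant libraries labelled no phosphate, against 30.9, 24.4 and 7.5 CPM in those labelled no nitrate and 30.4, 53.9 and 11.9 CPM in full medium. Its Tak-1 levels were 269, 281 and 246 CPM labelled no phosphate, 38.8, 29.5 and 30.4 CPM labelled no nitrate and 36.4, 34.7 and 38.3 CPM in full medium. All mutant libraries labelled no phosphate stood well above the rest. So did those of Tak-1, where the rule chose the gene as high. The mutant value was higher than in full medium (log2 2.40, SE 0.457, adjusted p = 0.00119) and than in those labelled no nitrate (log2 3.01, SE 0.476, adjusted p = 0.000597). Next to it in locus order lies MpLDPS2 (Mp8g05270), a gene of low level. It had 1.75, 1.86 and 0.803 CPM in the mutant libraries labelled no phosphate, against 0.212, 0.145 and 0.0497 CPM in those labelled no nitrate and 0.36, 0.196 and 0.196 CPM in full medium. The mutant group labelled no phosphate did not overlap another medium.

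MpNPF5 (Mp3g03470), of the nitrate and peptide transporter family, had 5.39, 5.23 and 5.32 CPM in the mutant libraries labelled no phosphate, against 3.23, 4.00 and 2.68 CPM in those labelled no nitrate and 2.78, 3.24 and 2.7 CPM in full medium. The 3 libraries labelled no phosphate were nearly equal and lay above the other 6. It was higher than in full medium (log2 0.80, SE 0.198, adjusted p = 0.00341) and than in those labelled no nitrate (log2 0.63, SE 0.197, adjusted p = 0.0248), the second call being lost without any of 4 libraries (adjusted p of 0.0518 to 0.119) and with only those 2 media in the model (adjusted p = 0.054). MpHA14 (Mp3g12390), a plasma membrane proton pump gene, was among the most abundant members. It had 700.4, 839 and 926 CPM in the mutant libraries labelled no phosphate, against 524, 502 and 341 CPM in those labelled no nitrate and 360.4, 541 and 483 CPM in full medium, and its fold changes were 0.76 (SE 0.16, adjusted p = 0.00178) and 0.79 (SE 0.16, adjusted p = 0.00238). Each library labelled no phosphate exceeded every other mutant library.

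Of 8 tested AMT genes, 7 were called higher and 0 lower in the mutant labelled no phosphate when set against full medium, and 4 and 0 against the libraries labelled no nitrate. MpAMT1.5 and MpAMT1.3, which lie beyond MpAMT1.4 on the same chromosome, were at low levels (1.31 and 1.93 CPM in the mutant labelled no phosphate, against 0.27 and 0.0658 CPM labelled no nitrate). They were not members, since their Tak-1 values labelled no nitrate were 0.57 and 0.86 above full medium on the log2 scale. The other families had calls in both directions. Of 21 NPF genes 6 were called higher and 3 lower against full medium, and 3 and 2 against the libraries labelled no nitrate. Of 15 proton pump genes the counts were 6 and 2 against full medium, and 5 and 5 against the libraries labelled no nitrate. Locus neighbours of MpHA14 differed: MpHA5 was called higher in both comparisons (log2 1.59 and 0.77), MpHA4 against full medium alone (log2 0.79, and -0.31 against the libraries labelled no nitrate), and MpHA18 in neither. No member belongs to the PTB family, of whose 7 tested genes 1 was called higher and 1 lower against full medium, and 1 and 6 against the libraries labelled no nitrate. Of 21 autophagy genes, none of them a member, 6 were called higher and 1 lower against full medium, and 5 and 0 against the libraries labelled no nitrate.

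**Figure D4:**
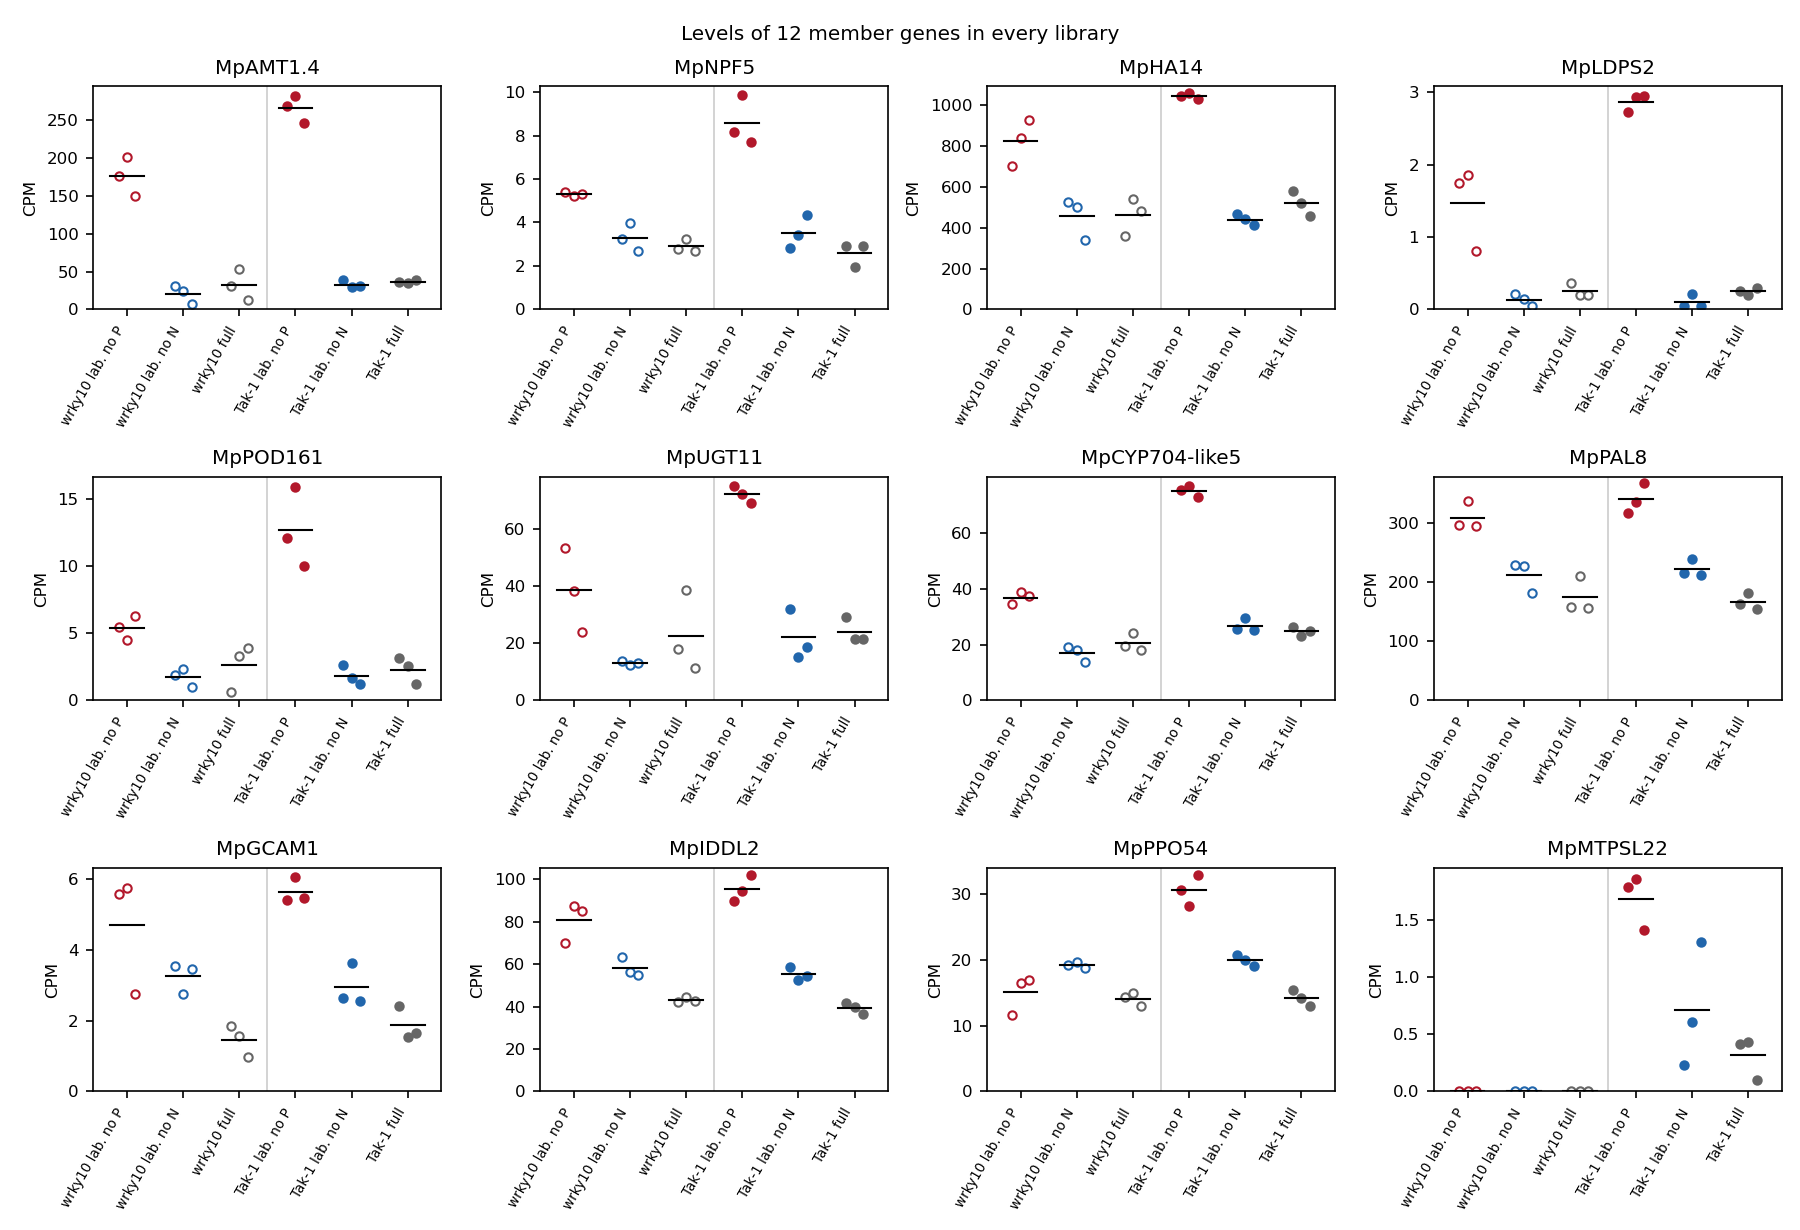
Levels (CPM, linear axes from 0) of 12 members in each library, wrky10 on the left (open points) and Tak-1 on the right (filled points); lines are group means of 3 libraries. In the top row MpAMT1.4, MpNPF5, MpHA14 and MpLDPS2 are high in the libraries labelled no phosphate of both lines. In MpPPO54 and MpMTPSL22 the libraries labelled no phosphate stand above both other media in Tak-1 and not in wrky10. MpMTPSL22 also reaches 1.31 CPM in 1 Tak-1 library labelled no nitrate. The Tak-1 values chose the genes.

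Of the enzymes of phenolic metabolism, the set held 1 of the 9 PAL genes, 2 of the 18 tested DFR-like genes and 1 of the 38 tested dirigent genes. MpPAL8 (Mp4g10060), a phenylalanine ammonia-lyase, which makes the first step towards phenolic acids, had 296, 336 and 295 CPM in the mutant libraries labelled no phosphate, against 229, 227 and 181 CPM in those labelled no nitrate and 158, 209.6 and 156 CPM in full medium. The libraries labelled no phosphate lay above the other 6, with fold changes of 0.75 (SE 0.109, adjusted p = 4.67e-05) and 0.48 (SE 0.109, adjusted p = 0.00362). Of the 9 PAL genes, 5 were called higher and 0 lower against full medium, and 2 and 6 against the libraries labelled no nitrate, the other being MpPAL1 (log2 0.51, adjusted p = 0.0362). Both DFR-like members, relatives of the dihydroflavonol reductases of flavonoid synthesis, were higher than in full medium: MpDFR-like13 (log2 0.80, SE 0.238, adjusted p = 0.0182) and MpDFR-like9 (log2 0.80, SE 0.218, adjusted p = 0.0105). Of all 18, 6 were called higher and 4 lower against full medium, and 1 and 7 against the libraries labelled no nitrate. MpDFR-like13 was also higher than in the libraries labelled no nitrate (log2 0.83, adjusted p = 0.022), and MpDFR-like9 was at 65.5 ± 5.94 CPM labelled no phosphate, against 41.7 ± 9.92 CPM labelled no nitrate and 35.9 ± 13.1 CPM in full medium (SD, n = 3; adjusted p = 0.0576 against no nitrate). The calls of MpDFR-like13 were lost without any of 3 libraries against full medium (adjusted p up to 0.0785) and without either of 2 against the libraries labelled no nitrate (adjusted p up to 0.0953). With only the libraries of the 2 media in the model, the adjusted p against full medium was 0.155 for MpDFR-like13 and 0.0862 for MpDFR-like9. MpDIR37, a dirigent gene, of a family that guides phenolic coupling, had 55.2, 59.9 and 51.5 CPM in the mutant libraries labelled no phosphate, against 46.4, 70.0 and 33.8 CPM in those labelled no nitrate and 28.1, 34.8 and 26.4 CPM in full medium. It rose against full medium (log2 0.83, SE 0.200, adjusted p = 0.00459), while the libraries labelled no nitrate spread across those labelled no phosphate (adjusted p = 0.779).

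The 4 class III peroxidase members, whose secreted enzymes act on phenolics and cell walls, were at low levels and responded unevenly. MpPOD161 had 5.45, 4.5 and 6.33 CPM in the mutant libraries labelled no phosphate, against 1.91, 2.36 and 0.993 CPM in those labelled no nitrate and 0.618, 3.33 and 3.91 CPM in full medium. Its libraries labelled no phosphate lay just above all others, which gave a call against the libraries labelled no nitrate (log2 1.57, SE 0.493, adjusted p = 0.0296) but not against full medium (adjusted p = 0.127). The call was lost without any of 4 libraries, with an adjusted p of up to 0.119. MpPOD166 had 0.565, 1.08 and 1.2 CPM in the mutant libraries labelled no phosphate, against 0.265, 0.193 and 0.199 CPM in those labelled no nitrate and 0, 0.049 and 0 CPM in full medium, and was called in both (adjusted p = 0.000155 and 0.0183), the second again lost without any of 4 libraries (adjusted p of 0.0517 to 0.0612). MpPOD103 had 0.103, 0.684 and 0 CPM in the mutant libraries labelled no phosphate, against 0, 0.0482 and 0 CPM in those labelled no nitrate and 0, 0 and 0 CPM in full medium. It was at least 5.72-fold higher than in full medium, where it had 0 counts (floor of 3 counts over the group, adjusted p = 0.0253, a call lost without any of 3 libraries, up to 0.227), but 1 of its libraries labelled no phosphate was at 0 too. MpPOD126 had a count in 1 of the 9 mutant libraries, replicate 2 labelled no phosphate, at 0.489 CPM. MpPOD166, MpPOD103 and MpPOD126 entered the test through the groups labelled no phosphate, so their p-values are a description only. Over the 109 tested peroxidase genes 66 were called higher and 7 lower against full medium, and 16 and 13 against the libraries labelled no nitrate. Reads of near-identical family members may have been divided between them in ways that cannot be traced, so values of single peroxidase, PAL or AMT genes are uncertain to that extent.

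Other enzymes of small-molecule metabolism followed. MpDOXC30, a dioxygenase of the 2-oxoglutarate-dependent class, had 18.8, 18.7 and 15.1 CPM in the mutant libraries labelled no phosphate, against 6.68, 5.83 and 6.8 CPM in those labelled no nitrate and 6.64, 7.16 and 4.89 CPM in full medium. The libraries labelled no phosphate lay above the other 6, and both changes were alike in size (log2 1.43, SE 0.156, adjusted p = 1.83e-06, and log2 1.38, SE 0.156, adjusted p = 5.3e-06). Of the 4 cytochrome P450 members, oxidising enzymes, MpCYP704-like5 was called higher in both (log2 0.78, adjusted p = 1.63e-05, and log2 1.06, adjusted p = 2e-06), as was MpCYP816A1 (log2 0.63, adjusted p = 1.91e-05, and log2 0.49, adjusted p = 0.000373). MpCYP704-like5 stood at 34.4, 38.8 and 37.3 CPM in the mutant labelled no phosphate, well under the 75.1, 76.8 and 72.7 CPM of Tak-1 labelled no phosphate. MpCYP829A1 was higher than in full medium (log2 0.83, adjusted p = 9.89e-06) and had 143, 180.2 and 162 CPM labelled no phosphate against 141, 146 and 127 CPM labelled no nitrate (adjusted p = 0.237). MpCYP94-like was called in neither (adjusted p = 0.102 and 0.098). Of 85 tested P450 genes 26 were called higher and 15 lower against full medium, and 13 and 22 against the libraries labelled no nitrate. MpUGT11, a glycosyltransferase gene, had 53.2, 38.2 and 23.9 CPM in the mutant libraries labelled no phosphate, against 13.8, 12.3 and 13.1 CPM in those labelled no nitrate and 17.8, 38.5 and 11.5 CPM in full medium. Full-medium replicate 2 lay inside the range of the libraries labelled no phosphate, and the change against full medium was not called (log2 0.71, adjusted p = 0.191, or log2 1.34, adjusted p = 0.0117 without that library). Against the libraries labelled no nitrate it was (log2 1.503, SE 0.419, adjusted p = 0.019), a call lost without any of 3 libraries (adjusted p up to 0.0733). Of 30 UGT genes 8 were called higher and 2 lower against full medium, and 6 and 6 against the libraries labelled no nitrate.

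MpGCAM1 (Mp6g04830), a MYB transcription factor needed for gemma cups, had 5.6, 5.77 and 2.76 CPM in the mutant libraries labelled no phosphate, against 3.55, 2.75 and 3.48 CPM in those labelled no nitrate and 1.85, 1.57 and 0.979 CPM in full medium. The libraries labelled no phosphate lay above all those in full medium (log2 1.63, SE 0.282, adjusted p = 0.000165), while replicate 3 labelled no phosphate fell among the libraries labelled no nitrate (log2 0.47, adjusted p = 0.198, or log2 0.74, adjusted p = 0.0312 without it). The gemma cup markers MpGCAM1 and MpKAR together summed to 29.4 to 39.1 CPM in the mutant labelled no phosphate, 27.0 to 29.0 CPM labelled no nitrate and 24.98 to 28.6 CPM in full medium, and their part in this result was not tested. MpIDDL2 (Mp1g15660), a zinc finger factor related to the INDETERMINATE DOMAIN proteins, had 70.1, 87.4 and 84.8 CPM in the mutant libraries labelled no phosphate, against 63.5, 56.2 and 54.7 CPM in those labelled no nitrate and 42.2, 44.3 and 42.6 CPM in full medium. It had 1 of the most precise changes of the set (log2 0.84, SE 0.0772, adjusted p = 3.84e-07, and log2 0.41, SE 0.0764, adjusted p = 0.000598), and all 3 media were ranked without overlap. Of the 6 IDD-like genes 4 were called higher and 1 lower against full medium, and 3 and 1 against the libraries labelled no nitrate.

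MpGID1L5 and MpGID1L2, relatives of the gibberellin receptor of flowering plants, were both called higher in both comparisons. MpGID1L5 was at 88.3 ± 9.67 CPM labelled no phosphate, against 39.3 ± 9.7 CPM labelled no nitrate and 43.4 ± 16.4 CPM in full medium, with log2 0.96, adjusted p = 0.00303 and log2 1.11, adjusted p = 0.00208 (SD, n = 3). MpGID1L2 was at 33.8 ± 3.07 CPM labelled no phosphate, against 23.7 ± 2.32 CPM labelled no nitrate and 18.5 ± 2.99 CPM in full medium, with log2 0.80, adjusted p = 6.52e-06 and log2 0.45, adjusted p = 0.00237. MpGID1L4, a near neighbour of MpGID1L5, was called higher in both as well (log2 1.29 and 0.77) and stayed outside the set by its Tak-1 value labelled no nitrate of 0.66. Over the 8 GID1-like genes 4 were called higher and 3 lower against full medium, and 3 and 3 against the libraries labelled no nitrate. MpPP2CD-AMT, of the protein phosphatase 2C family, had 117, 135 and 110.3 CPM in the mutant libraries labelled no phosphate, against 69.2, 71.3 and 48.2 CPM in those labelled no nitrate and 48.8, 77.3 and 52.6 CPM in full medium (log2 0.95, adjusted p = 0.000486, and log2 0.88, adjusted p = 0.00157). MpBTB, named for its BTB domain, rose by 0.84 against full medium (adjusted p = 0.000528) and by 0.52 against the libraries labelled no nitrate (adjusted p = 0.0211, lost without either of 2 libraries, up to 0.0964). With only the libraries of the 2 media compared in the model, the call of MpGID1L5 against full medium had an adjusted p of 0.059. No WRKY, bHLH, ERF or NAC gene was a member.

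Among genes of defence and transport, MpPR5a, a thaumatin-like pathogenesis-related protein, had 68.6, 60.8 and 60.3 CPM in the mutant libraries labelled no phosphate, against 41.7, 32.4 and 29.2 CPM in those labelled no nitrate and 27.6, 38.4 and 23.9 CPM in full medium. Its libraries labelled no phosphate lay far above the rest (log2 1.01, SE 0.146, adjusted p = 5.97e-05, and log2 0.82, SE 0.145, adjusted p = 0.000684). The ABCC transporters MpABCC12 and MpABCC2, of a family that moves conjugates across membranes, rose against full medium (log2 0.70, adjusted p = 8.96e-05, and log2 1.17, adjusted p = 0.000218). Against the libraries labelled no nitrate MpABCC12 was called (log2 0.40, adjusted p = 0.0128, lost without either of 2 libraries, up to 0.0805, and at 0.0987 with only those 2 media in the model) and MpABCC2 was not (adjusted p = 0.0729). MpLTP-like69, a lipid transfer protein relative, was called in both (log2 2.02, adjusted p = 0.00101, and log2 1.77, adjusted p = 0.00441) at levels of 2.26 to 3.03 CPM labelled no phosphate. MpLEA-like59, related to late embryogenesis abundant proteins, which protect cells in drying tissue, was called against full medium (log2 0.72, adjusted p = 0.0357, lost without any of 3 libraries, up to 0.189, and at 0.136 with only those 2 media in the model). It had 5.29, 8.5 and 5.77 CPM labelled no phosphate against 5.88, 6.5 and 4.37 CPM labelled no nitrate, which overlapped. MpGH97 had 35.9, 42.5 and 35.3 CPM in the mutant libraries labelled no phosphate, against 20.4, 21.4 and 15 CPM in those labelled no nitrate and 8.6, 19.95 and 11.5 CPM in full medium, called in both (log2 1.44, adjusted p = 0.000346, and log2 0.94, adjusted p = 0.00998, or 0.0513 without replicate 3 labelled no nitrate). MpGH91 was called against full medium (log2 1.36, adjusted p = 1e-05) and had 15.1, 15.4 and 11.6 CPM labelled no phosphate against 12, 10.7 and 7.7 CPM labelled no nitrate (adjusted p = 0.0806).

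Most members have no symbol (101 of 135), as have most genes tested (10575 of 13016). The largest change in Tak-1 and in each mutant comparison was in a gene without a symbol. Mp8g04340 was almost silent outside the libraries labelled no phosphate. It had 3.08, 9.24 and 1.61 CPM in the mutant libraries labelled no phosphate, against 0.159, 0 and 0 CPM in those labelled no nitrate and 0, 0 and 0 CPM in full medium, and in Tak-1 31.8, 39.6 and 22.4 CPM labelled no phosphate, 0, 0 and 0 CPM labelled no nitrate and 0.154, 0 and 0 CPM in full medium. It was at least 101-fold higher than in full medium, where it had 0 counts (floor of 3 counts over the group), and had 0 counts in 2 of the 3 libraries labelled no nitrate. It entered the test only through the libraries in which it is high, as did Mp4g22710. The mutant libraries labelled no phosphate were all below the lowest Tak-1 library of that medium. Mp4g22710 ran the other way between the lines, with 9.81, 4.2 and 9.29 CPM in the mutant libraries labelled no phosphate, against 0, 0 and 0 CPM in those labelled no nitrate and 0.154, 0.147 and 0 CPM in full medium, and 3.87, 3.13 and 2.9 CPM in Tak-1 labelled no phosphate. Against full medium its change was 6.24 on the log2 scale (SE 0.541), and against the libraries labelled no nitrate, which had 0 counts, it was at least 155-fold higher.

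Mp1g01450, the most abundant member, had 1350.1, 1199 and 1028 CPM in the mutant libraries labelled no phosphate, against 480.1, 209 and 192 CPM in those labelled no nitrate and 407, 712 and 420.5 CPM in full medium, and in Tak-1 1921, 1808 and 1792 CPM labelled no phosphate, 685, 449.7 and 447 CPM labelled no nitrate and 839, 648 and 583 CPM in full medium. Every mutant library labelled no phosphate exceeded every other mutant library. The same held in Tak-1, where the rule chose the gene as high. Its change was log2 1.15, SE 0.335, adjusted p = 0.0166 against full medium and log2 1.96, SE 0.343, adjusted p = 0.00114 against the libraries labelled no nitrate. The first call was lost without any of 3 libraries, full-medium replicates 1 and 3 and replicate 1 labelled no phosphate (adjusted p up to 0.0679). Mp1g00600 had 12.4, 15.1 and 10.5 CPM in the mutant libraries labelled no phosphate, against 5.35, 3.56 and 2.48 CPM in those labelled no nitrate and 2.01, 3.77 and 2.19 CPM in full medium (log2 2.18, SE 0.251, adjusted p = 4.1e-06, and log2 1.68, adjusted p = 7.94e-05). Mp8g06880 had 9.91, 12.8 and 7.48 CPM in the mutant libraries labelled no phosphate, against 2.97, 4.19 and 1.64 CPM in those labelled no nitrate and 0.875, 2.75 and 2.19 CPM in full medium (log2 2.29, SE 0.32, adjusted p = 3.55e-05, and log2 1.71, adjusted p = 0.000657). Mp5g21250 reached 91.5, 108 and 79.6 CPM labelled no phosphate (log2 1.55, adjusted p = 0.000129, and log2 1.21, adjusted p = 0.00141). In these 3 genes the groups labelled no phosphate stood apart from both other media. Mp3g05330 and Mp4g05320 were called higher in both (log2 1.36, adjusted p = 0.000761, and log2 0.89, adjusted p = 0.017 for the first, log2 1.04, adjusted p = 0.000337, and log2 0.52, adjusted p = 0.0448 for the second). Their calls against the libraries labelled no nitrate were lost without either of 2 libraries for Mp3g05330 (adjusted p up to 0.0625) and without any of 4 for Mp4g05320 (adjusted p up to 0.186). The call of Mp4g05320 was also lost with no filter on low counts (adjusted p = 0.0664) and with only those 2 media in the model (adjusted p = 0.115).

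Mp3g10920, Mp6g07190, Mp4g22450, Mp6g00510 and Mp2g03150, abundant genes without a symbol, were called higher in both comparisons. Mp3g10920 had 383, 373 and 394 CPM in the mutant libraries labelled no phosphate, against 238, 204 and 160.2 CPM in those labelled no nitrate and 138, 199.8 and 125 CPM in full medium (log2 1.24, SE 0.159, adjusted p = 3.22e-05, and log2 0.88, adjusted p = 0.000978). Mp6g07190 had 397, 397 and 331 CPM in the mutant libraries labelled no phosphate, against 277, 295 and 229 CPM in those labelled no nitrate and 197, 233 and 211 CPM in full medium (log2 0.74, SE 0.087, adjusted p = 3.86e-06, and log2 0.43, adjusted p = 0.00117). Libraries labelled no phosphate were above all others in both genes, although Mp3g10920 was spread in the other media, with an SD of 10.3 CPM labelled no phosphate, 39.0 CPM labelled no nitrate and 39.8 CPM in full medium. The changes were log2 0.54, adjusted p = 0.00657 and log2 0.80, adjusted p = 0.000733 in Mp4g22450, and log2 0.74, adjusted p = 4.38e-05 and log2 0.84, adjusted p = 2.91e-05 in Mp2g03150. Mp6g00510 was at 261 ± 12.6 CPM labelled no phosphate, against 107 ± 39 CPM labelled no nitrate and 109.9 ± 50.0 CPM in full medium (SD, n = 3), with log2 1.18, adjusted p = 0.00522 and log2 1.24, adjusted p = 0.00655, and its call against full medium was lost with only those 2 media in the model (adjusted p = 0.0603). The 6 members with the smallest adjusted p against full medium included Mp2g18990 (log2 1.14, SE 0.0746, adjusted p = 1.44e-08), Mp4g03400 (log2 0.96, SE 0.0818, adjusted p = 2.19e-07), Mp1g23520 (log2 0.82, SE 0.0768, adjusted p = 4.38e-07) and Mp6g16840 (log2 1.21, SE 0.118, adjusted p = 6.55e-07), beside MpIDDL2 and Mp4g22710. The last of these entered the test through the groups labelled no phosphate, so its place in this order is a description only. Mp2g18990 had 191, 197 and 189 CPM in the mutant libraries labelled no phosphate, against 128, 119 and 108 CPM in those labelled no nitrate and 72, 91.2 and 86.3 CPM in full medium, a rank order of the 3 media that did not overlap. Mp1g19310 was abundant in Tak-1 labelled no phosphate (232, 245 and 225 CPM) and was called in neither mutant comparison. It had 143, 138 and 95.1 CPM in the mutant libraries labelled no phosphate, against 113, 203 and 84 CPM in those labelled no nitrate and 63.5, 84 and 71.2 CPM in full medium (log2 0.71, adjusted p = 0.0632, and log2 -0.15, adjusted p = 0.735), its replicate 2 labelled no nitrate being the highest of the 9.

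By level in Tak-1 full medium, the members called against full medium were 37 of 41 at 1 to under 10 CPM, 58 of 70 at 10 to under 100 CPM and 8 of 8 at 100 CPM or more. Over all tested genes of the same classes, 27.3%, 18.8% and 16.6% were called higher. Against the libraries labelled no nitrate the members called were 22, 48 and 8, with 8.93%, 12.2% and 15.9% of all tested genes. Under 1 CPM, 11 of the 16 members are those that passed the filter through the groups labelled no phosphate. Of the other 5, 3 were called against full medium, beside 20.9% of all tested genes of that class, and 2 against the libraries labelled no nitrate, beside 4.88%. Without those 11 genes, 25 of 29 members with a symbol were called against full medium and 19 against the libraries labelled no nitrate, beside 25.4% and 14.2% of all genes with a symbol. Of 95 members without a symbol the counts were 81 and 61, beside 19.1% and 10.8% of all genes without one.

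A smaller group rose in the wild type with no rise, or none that was called, in the mutant. Among them was MpMTPSL22 (Mp6g11710), of the microbial-type terpene synthase family. It had 0 counts in all 9 mutant libraries, full medium included, so that a change between media could not be measured in the mutant. In Tak-1 it had 1.78, 1.86 and 1.41 CPM labelled no phosphate, 0.227, 0.606 and 1.31 CPM labelled no nitrate and 0.41, 0.434 and 0.101 CPM in full medium. These Tak-1 libraries labelled no phosphate, through which the rule chose the gene as high, lay above the other 6. It passed the rule because a pseudocount of 1 CPM exceeds its level, so that the lines were close by the limits used. Oil body cells hold terpenes, and their 5 markers summed to 50.7 to 57.0 CPM in the mutant labelled no phosphate, 48.5 to 50.8 CPM labelled no nitrate and 48.3 to 58.0 CPM in full medium. In Tak-1 the sums were 102 to 114, 70.7 to 74.4 and 67.7 to 87.6 CPM. The marker MpMTPSL2 averaged 0.666 CPM in the mutant and 39.8 CPM in Tak-1 labelled no phosphate, the largest difference in CPM among these markers. In the same order the means were 35.9 and 42.3 CPM for MpC1HDZ and 7.59 and 14.4 CPM for MpR2R3-MYB2. They were 6.44 and 9.15 CPM for MpSYP12B and 2.41 and 4.04 CPM for MpERF13. MpMTPSL2 was also low in the mutant in full medium (0.655 CPM). The part of these markers in the result was not tested. MpTPS4, the other member of the terpene synthase list, was higher in the mutant than in full medium (log2 0.63, adjusted p = 0.00295) and had 14.8, 16.4 and 10.9 CPM labelled no phosphate against 12.9, 11.6 and 10.9 CPM labelled no nitrate (adjusted p = 0.378). Of 16 tested genes of that list 6 were called higher and 0 lower against full medium, and 2 and 1 against the libraries labelled no nitrate.

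MpPPO54 (Mp5g19990), a polyphenol oxidase, which oxidises phenolic compounds, had 11.6, 16.5 and 17 CPM in the mutant libraries labelled no phosphate, against 19.2, 19.7 and 18.7 CPM in those labelled no nitrate and 14.3, 15 and 12.9 CPM in full medium. In Tak-1 it had 30.6, 28.2 and 32.8 CPM labelled no phosphate, 20.6, 19.98 and 19 CPM labelled no nitrate and 15.4, 14.2 and 12.9 CPM in full medium. The mutant did not differ detectably from full medium (log2 0.03, SE 0.11, adjusted p = 0.869) and was lower than in those labelled no nitrate (log2 -0.42, SE 0.108, adjusted p = 0.00806, or adjusted p = 0.063 with only those 2 media in the model). Mp2g25870 was likewise called lower than in the libraries labelled no nitrate (log2 -0.38, adjusted p = 0.0121, or 0.0566 without replicate 1 labelled no phosphate and 0.0737 with only those 2 media in the model) and not against full medium (adjusted p = 0.238). Mp8g00740 was higher than in full medium (log2 0.34, adjusted p = 0.00200) and lower than in the libraries labelled no nitrate (log2 -0.22, adjusted p = 0.042), a call lost with each other normalization, filter, model and tool run (adjusted p of 0.051 to 0.17) and without any of 4 libraries (adjusted p up to 0.142). Mp2g11820 and Mp2g01400, at 22.8 to 26.9 and 17.9 to 22.6 CPM in Tak-1 labelled no phosphate, had 15.7, 14.7 and 10.5 CPM and 10.7, 13.4 and 8.58 CPM in the mutant of that medium. Neither was called (adjusted p = 0.764 and 0.892 against full medium). The 7 genes called only against the libraries labelled no nitrate were MpPOD161, MpUGT11, Mp8g03170, Mp3g15460, Mp4g12110, Mp4g22680 and Mp6g15090, with fold changes of 0.58 to 1.57 in that comparison and 0.38 to 0.95 against full medium.

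Between the lines in the medium labelled no phosphate, 92 members (68.1%) were lower in the mutant with no overlap, against 19.7% of all genes tested, and 2 were higher, against 11.2%. The median difference was -0.33 on the log2 scale, against -0.01 over all genes. These values are a description without a test, because the Tak-1 libraries of that medium chose the genes as high and so place the mutant below them by selection. The 2 genes that lay higher in the mutant were Mp4g22710 and Mp4g03400, the second with 56.3, 67.1 and 59.7 CPM against 45.2, 53.6 and 52.8 CPM in Tak-1. The change over full medium was smaller in the mutant in 126 members and larger in 9, among them MpGH91 (log2 1.27 against 1.04 in Tak-1, on the CPM + 1 scale) and MpLTP-like69 (1.18 against 1.12). In MpGID1L5, MpPAL8, MpCYP816A1 and MpCYP829A1 the lines overlapped.

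The members lie on all 8 autosomes, with 6 to 21 on each. Chromosome 7 holds 4.44% of the members, against 10.3% of all genes with counts. There were 6 pairs of members at adjacent locus numbers and no longer run. Besides MpLDPS2 with MpAMT1.4, they were Mp5g12590 with MpBTB, Mp1g23510 with Mp1g23520, Mp2g24790 with Mp2g24800, Mp6g06590 with Mp6g06600 and Mp8g11980 with Mp8g11990. All 12 genes were called higher against full medium, although MpLDPS2 passed the filter on low counts through the groups labelled no phosphate. Over all members the share was 85.2%, and over all genes tested 20.3%, so the pairs are not shown to differ from other members. Within the pairs Mp6g06590 and Mp6g06600 differed against the libraries labelled no nitrate (log2 0.24, adjusted p = 0.146, and log2 1.53, adjusted p = 1.25e-06), and Mp2g24790 and Mp2g24800 were called in neither direction there. The strand setting of the counting is not given in the sources used here, so reads from overlapping neighbours cannot be told apart.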

How the data were processed

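The deposited values were whole-number counts of reads per gene and library, per the file headers and the values. STAR 2.7 and DESeq2 are named in the submitters' processing notes without their role; the program that counted reads, its strand setting and the build are not given in the sources used here. Totals were 18165419 to 25544702 counts per library, and 1 count equalled 0.0391 to 0.055 CPM. Replicate pairs differed by more than sampling noise (chi-square of 3.55 to 21.2 per degree of freedom).

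Levels are counts divided by the library total, in CPM, with SD over 3 libraries. All 18 Marchantia libraries were fitted in 1 edgeR model (edgeR 4.0.16, R 4.3.3) with TMM factors of 0.972 to 1.06, filterByExpr (13016 genes kept) and the robust two-sided quasi-likelihood F-test, adjusted by Benjamini-Hochberg over all genes tested; every adjusted p comes from this test unless another setting is named. The SE was computed as the absolute log2 fold change over the square root of F. The model was tested on simulated counts. Where all libraries of a group had 0 counts, the fold was taken against 3 counts over that group, a floor for counting error only.

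The members and the gene lists were chosen with earlier results of these data known. Lists were picked by symbol; the DFR-like, GID1-like, dirigent, polyphenol oxidase, DOXC, PAL, IDD-like and PP2C lists were added after the members were seen, and the prefixes for nitrate assimilation, glutamine synthesis, NRT2 and NLP matched no symbol. Lists without counts in the results had these numbers of higher and lower calls, against full medium and then against the libraries labelled no nitrate: MYB 10 and 6, 13 and 6 of 45; ABC 28 and 14, 15 and 11 of 88; expansin 15 and 6, 4 and 4 of 27; WRKY 4 and 0, 0 and 8 of 13; bHLH 9 and 7, 5 and 6 of 35; ERF 6 and 3, 0 and 4 of 15; NAC 1 and 2, 0 and 1 of 7; receptor kinases 21 and 13, 12 and 14 of 75; amino acid permeases 1 and 0, 1 and 0 of 2; phosphate signalling 0 and 0, 1 and 3 of 4. The lists added later gave dirigent 9 and 12, 0 and 21 of 38; PPO 12 and 6, 1 and 10 of 33; DOXC 7 and 3, 4 and 7 of 28; and PP2C 4 and 5, 1 and 4 of 19. Named genes were the 12 with the largest wild-type change, the 10 highest, those with a symbol (up to 30), the 6 with the smallest adjusted p, the 6 with the smallest change, up to 4 per list and the 3 on either side of the threshold. Names came from a table for the assembly MpTak2_v7.1 (17384 of 18391 entries matched, 133 of 135 members), matched by locus number. Alternatives were other normalizations, no filter, a replicate block, only 2 groups, DESeq2 1.42.0, leaving out each library, and other pseudocounts or scaling in the rule. Sequences and the 9 lettuce libraries were not used here.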

Additional observations from a re-analysis of the deposited data

How the results depend on the processing

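The median change of the members stayed above 0 in all settings run. Single genes with a small change could switch sign when 1 library was left out. Against full medium MpPPO54 ran from log2 -0.075 to 0.166 and Mp2g11820 from -0.332 to 0.109. Against full medium 104 to 119 members were called higher and 0 lower when 1 library was left out, with a median of 0.83 to 1.07 (1.07 without full-medium replicate 2), and 102 of the 115 genes were called without each library in turn. Against the libraries labelled no nitrate 61 to 88 were called higher and 1 to 3 lower, with a median of 0.55 to 0.73 (0.55 without replicate 3 labelled no nitrate); 60 of the 87 genes were called without each library in turn, and 1 was called lower without replicate 1 labelled no phosphate. Over all genes, 2105 to 2520 were called higher and 1700 to 2121 lower against full medium when 1 library was left out, and 937 to 1318 and 1462 to 1808 against no nitrate, with 937 higher without replicate 3 labelled no nitrate. With only the 2 groups compared in the model, 0 members and 1266 genes were called lower against no nitrate. DESeq2 called 117 members higher and 0 lower against full medium, and 90 and 3 against no nitrate. With the replicate number as a block the counts were 117 and 0, and 89 and 2. Samples of the same number deviated together only weakly (correlations of 0.017, 0.028 and 0.286, and of 0.083, 0.224 and 0.077). With 3 libraries per group these values cannot decide whether the numbers pair the samples. Of single named genes 62 values lost a call, 25 gained one and 0 reversed, over 1386 values in all. A reversal was counted only where the gene was called in at least 1 of the 2 settings compared. The rule itself gave 111 genes with TMM-scaled CPM (110 of them among the 135), 136 with a pseudocount of 0.5 CPM (120 shared), 131 with 2 CPM (108 shared), and 126 to 150 without 1 library. The cause of these shifts was not tested. At this depth genes under 1 CPM rest on few reads, and 3 libraries per group limit what can be called.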
